A study of Mus musculus with 12 samples.

Results

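Nitric oxide, arginine and polyamine metabolism was followed here through 10 genes, listed by symbol for their roles in the pathway, among 54532 genes listed in the count files. They were the inducible nitric oxide synthase Nos2, the arginine transporter Slc7a2, the cofactor enzyme Gch1, the citrulline recycling enzymes Ass1 and Asl, the arginases Arg1 and Arg2, and the polyamine enzymes Odc1, Srm and Sat1. All 10 were found under 1 identifier each. A filter on low counts kept 9 of them for testing and removed Arg1, which had 60 counts over all libraries.

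RNA-seq was done on mouse bone marrow monocytes sorted as CD11b+Ly6Chi cells, which are the classical inflammatory monocytes of the marrow. The 4 groups of 3 libraries each were cells of control mice cultured without a stimulus, cells of control mice treated with lipopolysaccharide (LPS) for 4 h, and both cultures again from mice that had received 300 mM succinate for 7 days. LPS is the bacterial ligand of Toll-like receptor 4. The sources used here give neither the LPS dose nor the strain, age or sex of the mice. Nothing in the labels ties a library to a mouse of its own. If replicates share mice or cultures, the p-values reflect technical spread alone.

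Arginine is the shared substrate of the pathway. Nos2 turns it into nitric oxide and citrulline and needs the cofactor tetrahydrobiopterin, whose synthesis begins with Gch1. Ass1 and then Asl rebuild arginine from citrulline, and Slc7a2 (CAT2) brings arginine in from outside. Arginases instead split arginine into urea and ornithine: Arg1 is the cytosolic form known from alternatively activated macrophages and Arg2 the mitochondrial form. Odc1 makes putrescine from ornithine, Srm makes spermidine from putrescine, and Sat1 acetylates spermidine and spermine for breakdown or export. In mouse macrophages, Nos2 is a classical product of LPS stimulation.

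Sequence upstream of the start site was read for the members held in the RefSeq promoter table (GRCm38.p6), which matched 4 of 10 (Gch1, Ass1, Odc1 and Sat1). The stretches of Gch1 and Ass1 are shown because these 2 passed the test for LPS in control mice. Capitals mark matches to any of the motifs searched, on either strand: the kappa-B consensus, the interferon-stimulated response element (GAAA, 2 bases of any kind, GAAA), the E-box CACGTG, the hypoxia response element cores ACGTG and GCGTG, the AP-1 motif TGANTCA and the TATA box TATAAA. The Ass1 stretch ends before the gene start of the GENCODE M21 annotation.
Gch1, minus strand, chr14:47189414-47189663: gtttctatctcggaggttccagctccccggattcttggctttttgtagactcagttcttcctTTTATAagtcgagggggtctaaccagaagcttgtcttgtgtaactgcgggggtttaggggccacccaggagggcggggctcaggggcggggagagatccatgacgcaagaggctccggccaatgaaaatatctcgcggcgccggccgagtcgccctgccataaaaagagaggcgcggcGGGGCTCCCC
Ass1, plus strand, chr2:31470020-31470206: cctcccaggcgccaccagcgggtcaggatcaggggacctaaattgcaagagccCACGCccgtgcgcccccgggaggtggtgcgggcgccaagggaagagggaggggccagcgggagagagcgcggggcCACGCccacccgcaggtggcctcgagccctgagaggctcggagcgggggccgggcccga
In the 250 bases before the start, Gch1 held 1 kappa-B match directly before the start (first base at -10), a motif found in 3.90% of all 32851 promoters of that table. It also held 1 reversed TATA box (first base at -188), a motif found in 12.4%. Ass1 held 2 GCGTG cores (28.2% of promoters) and, beyond the stretch shown, 1 E-box at -36 (6.02%) whose letters contain ACGTG (16.6%). That E-box lies before the start used by the promoter table but after the GENCODE M21 gene start, inside the annotated gene. Odc1 held 3 GCGTG cores, and Sat1 held none of the motifs. No match to the interferon-stimulated response element (2.98% of promoters) or to TGANTCA (6.75%) lay in the 4 windows. A match describes letters only.

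Total counts per library lay between 15975882 and 18306747. The defining monocyte markers Itgam (CD11b, 155 to 192 CPM), Ly6c2 (485 to 1632 CPM), Ccr2 (22.6 to 132 CPM) and Csf1r (213 to 616 CPM) were present in every library. CPM are counts per 1 000 000 after normalisation. Summed neutrophil markers (9 genes) were 6330 to 13520 CPM in the libraries without LPS and 13710 to 18890 CPM with it, and summed macrophage markers (7 genes) were 154 to 256 and 742 to 939 CPM. None of these 16 genes was at 0 in every library of a group. The members of a list did not move as one: in control mice the mean of Mmp8 went from 147 to 54.3 CPM and that of Cxcr2 from 26.1 to 10.3 CPM, while S100a8 went from 1692 to 3125 CPM. In control mice the macrophage sum was mostly Vcam1 and Adgre1 without LPS (means of 121 and 112 CPM). With LPS it was mostly Vcam1 (736 CPM), with Adgre1 at 139 CPM. Mertk and the C1q genes stayed below 1 CPM. Summed monocyte markers (8 genes) were 7541 to 7970 CPM without and 5208 to 5586 CPM with LPS in control mice, and overlapped in succinate mice. Most of that sum was Lyz2 (means of 5858 and 3268 CPM in control mice). Ccr2, Csf1r and F13a1 also had lower means with LPS in control mice, and Itgam was level (176 and 174 CPM). The means of Ly6c2 (593 and 1233 CPM), Ms4a4c (11.6 and 111 CPM) and Fcgr1 (4.45 and 5.67 CPM) were higher with LPS. Progenitor markers (6 genes) summed to 2551 to 3530 CPM without and 2078 to 4687 CPM with LPS in control mice. In unstimulated control cells, the means of Mpo (1292 CPM), Elane (954 CPM) and Prtn3 (640 CPM) were above that of Csf1r (550 CPM). Those of Ctsg (137 CPM), Kit (55.9 CPM) and Cd34 (1.48 CPM) were below it. Summed dendritic cell markers (7 genes) were 10.5 to 17.0 CPM in the libraries without LPS and 23.7 to 33.0 CPM with it. The part of these lists in the results was not tested. In bulk RNA, fewer cells of a type and less RNA per cell cannot be told apart. The libraries also fell into a pair of classes by the counts of S100a4, Rpl24 and 3 pseudogenes (Rpl10-ps3, Gm14303, Rpl35a-ps2). The labels do not name these classes. They were drawn from these same counts, with the cut at the largest gap in the mean of those genes. In 5 libraries (replicates 2 and 3 of each unstimulated group, and control LPS replicate 3) these genes averaged 3.19 to 4.03 log2 CPM, against 0.82 to 1.46 in the other 7. Control LPS replicate 3 is thus the 1 LPS library of the smaller class, and the larger class holds 1 library of each unstimulated group.

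Before any comparison, the levels of the members were set side by side per length of exon (RPKM), with each gene's length taken as the union of its annotated exons. Sat1 was the most abundant member in every group, at 259 ± 25.1 RPKM in unstimulated control cells (SD, n = 3). Odc1 (17.4 ± 1.76 RPKM), Asl (13.5 ± 1.63), Ass1 (13.2 ± 2.04) and Arg2 (13.1 ± 1.89) followed, and the last 3 of these overlapped in their libraries. Srm (5.38 ± 1.34 RPKM) and Gch1 (4.19 ± 0.073) came next and overlapped as well. Arg1 (0.145 ± 0.084 RPKM), Slc7a2 (0.137 ± 0.059) and Nos2 (0.014 ± 0.014) lay lowest, and only the first 2 of them overlapped.

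With LPS the order was different. In control cells with LPS, Sat1 (204 ± 18.0 RPKM) was followed by Arg2 (27.8 ± 2.83), Ass1 (25.7 ± 9.35) and Odc1 (22.2 ± 7.33), neighbours that overlapped. Gch1 (12.1 ± 1.37 RPKM) overlapped Asl (11.5 ± 1.23), and Slc7a2 stood at 9.39 ± 0.479, above Srm (4.74 ± 1.91) and Nos2 (3.57 ± 2.40), which overlapped. Arg1 stayed last at 0.160 ± 0.053 RPKM. In cells of succinate mice with LPS, Nos2 (7.07 ± 0.366 RPKM) had the higher mean of the pair and Slc7a2 (4.65 ± 1.24) the lower, without overlap between them, and Srm (5.81 ± 1.30) lay between and overlapped both.

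**Figure D1:**
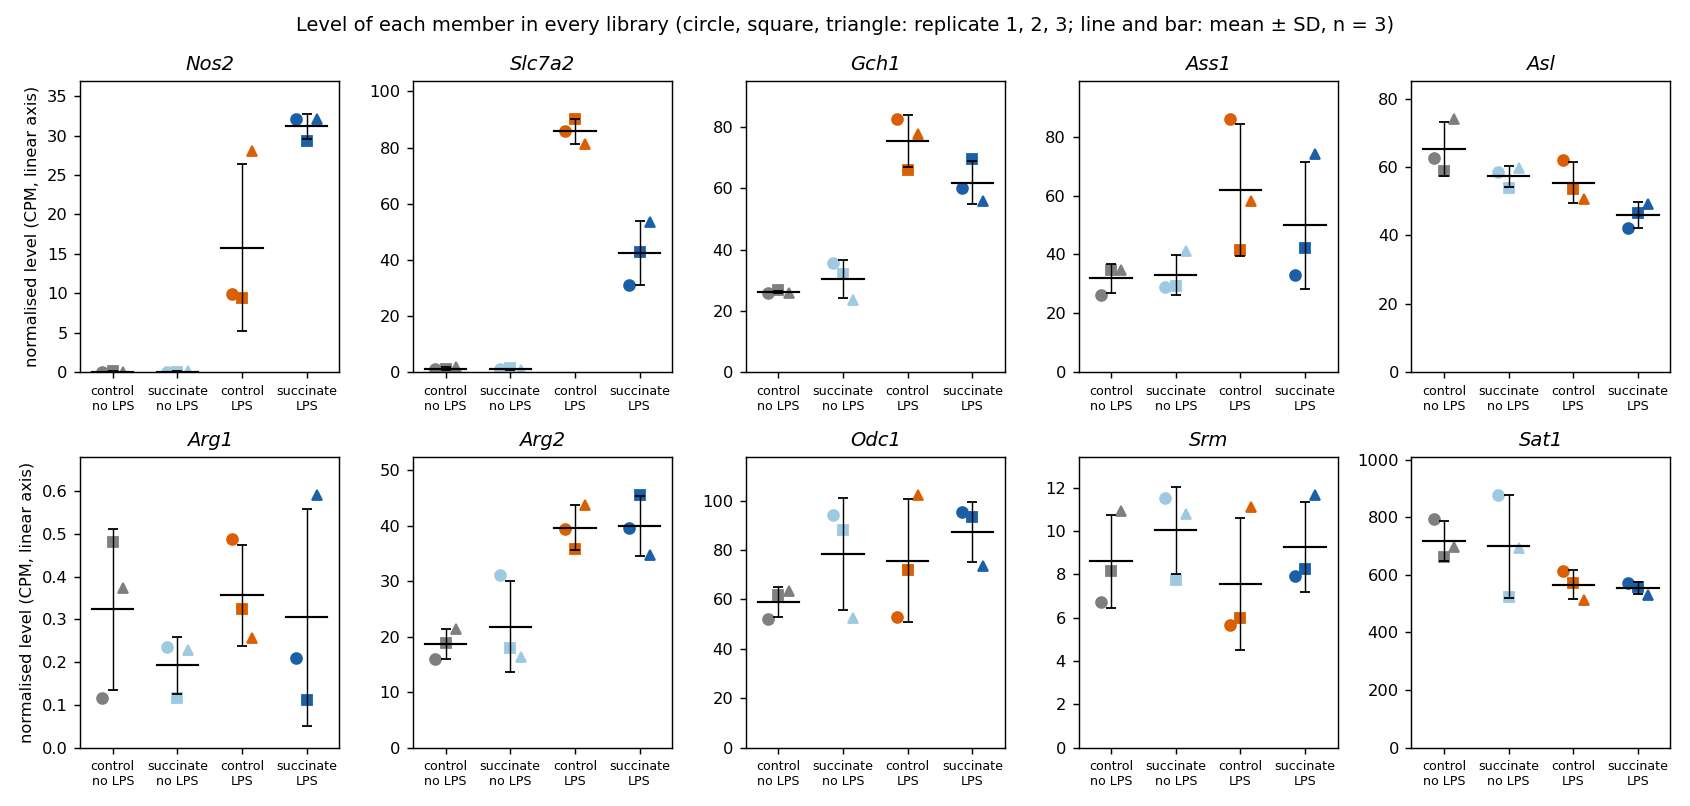
Normalised level (CPM, linear axis from 0) of each of the 10 members in the 12 libraries, by group, with replicate 1, 2 and 3 as circle, square and triangle and the group mean ± SD as line and bar. Nos2 and Slc7a2 were near 0 without LPS; with LPS, Nos2 was at 9.88, 9.41 and 28.0 CPM in control and 29.3 to 32.1 CPM in succinate mice, while Slc7a2 was at 81.4 to 90.2 and 30.9 to 53.5 CPM.

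The first comparison asked what LPS did to the pathway in monocytes of control mice. Genes of nitric oxide production rose: the synthase Nos2, the transporter Slc7a2, the cofactor enzyme Gch1 and the recycling enzyme Ass1, together with the mitochondrial arginase Arg2. The polyamine enzymes Odc1, Srm and Sat1 and the recycling enzyme Asl did not pass the test, and Arg1 was near 0 throughout. In all, 5 of 9 tested members were called higher and 0 lower by edgeR's quasi-likelihood test (adjusted p below 0.05 over all 14324 genes), beside 15.3% of all tested genes called higher and 14.8% called lower (30.1% in either direction). The members' median log2 fold change was 0.96, against -0.004 over all tested genes.

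Nos2 (chromosome 11, 78920787 to 78960254, GRCm38) had 0, 2 and 1 counts in the unstimulated control libraries, or 0 to 0.12 CPM. With LPS it had 162, 145 and 437 counts, or 9.88, 9.41 and 28.0 CPM. The 2 groups did not overlap, and replicate 3 of the LPS group stood far above the other 2. The ratio of the summed counts, each divided by the normalised library sizes of its group, was 261, with an exact 95% counting interval of 89.1 to 1270 that covers counting error only. The fitted log2 fold change was 7.87 ± 0.65 (adjusted p = 3.14e-07, edgeR). Without replicate 3 of the LPS group it was 7.16 and without replicate 2 of the unstimulated group 8.75, and it was called in both. In the larger library class, whose 1 unstimulated control library had 0 counts of Nos2, it was 10.40. With so few counts before LPS, the size of the rise is therefore poorly fixed.

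Slc7a2 (chromosome 8, 40862396 to 40922308) was at 0.926, 0.962 and 1.87 CPM without LPS and at 85.9, 90.2 and 81.4 CPM with it. All 3 LPS libraries lay close together, in contrast to Nos2. The log2 fold change was 6.10 ± 0.26 (SE; adjusted p = 7.42e-10, edgeR), or 68.5-fold. On the opposite strand, the exons of Gm26584 share 635 bases with Slc7a2, and that gene had 0 to 10 counts per library.

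Gch1 (chromosome 14, 47153895 to 47189413) went from 26.0, 26.7 and 25.8 CPM to 82.7, 66.02 and 77.9 CPM. The groups were far apart relative to their spread (log2 fold change 1.53 ± 0.15, adjusted p = 1.67e-06, edgeR). Ass1 (chromosome 2, 31470207 to 31520672) went from 26.2, 34.7 and 34.6 CPM to 86.1, 41.4 and 58.2 CPM. These groups did not overlap, but the LPS libraries were spread over more than 40 CPM, and the change was 0.96 ± 0.29 (adjusted p = 0.0197, edgeR). Without replicate 1 of the LPS group (0.64, adjusted p = 0.114) or without replicate 1 of the unstimulated group (0.84, adjusted p = 0.0743), the Ass1 call was lost. It was also lost in the 7 libraries of the larger class (1.32), which hold 1 unstimulated library of the control mice.

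Asl (chromosome 5, 130011258 to 130029247), which completes the recycling step begun by Ass1, was at 62.5, 58.9 and 74.0 CPM without LPS and 62.0, 53.4 and 50.7 CPM with it. Its groups overlapped (-0.23 ± 0.12, adjusted p = 0.162, edgeR). The ratio of Ass1 to Asl per exon length within a library, which does not depend on scaling between libraries, was 0.838, 1.18 and 0.937 without LPS and 2.78, 1.55 and 2.30 with it. Every LPS library was above every unstimulated one, with a two-sided exact permutation p of 0.1, the smallest that 3 against 3 libraries allow. Over the 10 such ratio tests made, the adjusted p was 0.25.

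Of the arginases, Arg2 (chromosome 12, 79130777 to 79156301) went from 15.97, 18.9 and 21.3 CPM to 39.4, 35.7 and 43.8 CPM. The groups did not overlap (1.08 ± 0.21, adjusted p = 0.00107, edgeR). Exons of Vti1b on the opposite strand share 285 bases with Arg2, and Vti1b was at a mean of 44.4 CPM without and 50.3 CPM with LPS, so reads at that end are uncertain where strand was not used. Arg1 (chromosome 10, 24915221 to 24927484) had 2, 8 and 6 counts without LPS and 8, 5 and 4 with it. Its counting ratio, scaled in the same way, was 1.12 (95% interval 0.532 to 2.37), so neither a rise nor a fall was detectable at this depth.

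The polyamine enzymes moved less. Odc1 (chromosome 12, 17544794 to 17551505) was at 52.2, 61.7 and 63.3 CPM without LPS and 52.9, 71.8 and 102 CPM with it. The groups overlapped, replicate 3 of the LPS group being the highest (0.36 ± 0.23, 95% interval -0.13 to 0.85, adjusted p = 0.277, edgeR). Srm (chromosome 4, 148591503 to 148594993) was at 6.71, 8.17 and 10.9 CPM and then 5.67, 5.97 and 11.1 CPM, again overlapping (-0.18 ± 0.28, adjusted p = 0.679, edgeR). Sat1 (chromosome X, 155213132 to 155216449) was at 795, 661 and 696 CPM and then 613, 570 and 514 CPM. The Sat1 groups did not overlap, but the change missed the threshold (-0.34 ± 0.15, adjusted p = 0.113, edgeR). It was called in 4 of 23 settings, with the library class as a covariate among them (-0.45, adjusted p = 0.0101). With scaling by library size alone, 7 of 9 tested members were called, since Sat1 (-0.43, adjusted p = 0.0424) and Asl (-0.32, adjusted p = 0.0469) were then called lower. In all, 6 of 9 tested members had groups that did not overlap (5 higher, 1 lower), beside 45.5% of all tested genes (22.3% higher, 23.2% lower).

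In monocytes of succinate mice, LPS raised 4 of 9 tested members and lowered 0 (edgeR), beside 14.1% of all tested genes called higher and 16.2% lower (30.2% in either direction). Their median log2 fold change was 0.59, against -0.017 over all tested genes. Nos2 had 1, 0 and 2 counts without LPS and 614, 520 and 597 with it, a ratio of 538 after division by library size (counting interval 184 to 2610; adjusted p = 7.6e-08, edgeR). The fitted change was 8.90 ± 0.63, and 9.76 without replicate 3 of the unstimulated group and 10.07 with the library class as a covariate. Slc7a2 went from 0.940, 1.28 and 0.853 CPM to 30.9, 42.9 and 53.5 CPM (5.36 ± 0.26, adjusted p = 2.73e-09, edgeR). Both groups of each gene were far apart.

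Gch1 rose from 35.7, 31.98 and 23.4 CPM to 60.2, 69.5 and 55.8 CPM (1.03 ± 0.15, adjusted p = 7.89e-05, edgeR). Arg2 rose from 31.2, 18.0 and 16.3 CPM to 39.5, 45.6 and 34.7 CPM (0.87 ± 0.21, adjusted p = 0.00488, edgeR). Neither pair of groups overlapped, although replicate 1 of the unstimulated group was well above the others for Arg2. Within the larger library class the Arg2 change was 0.38, and the call was lost. In that class, this replicate 1 is the 1 unstimulated library of the succinate mice. Ass1, at 28.9, 29.2 and 41.0 CPM and then 33.1, 42.2 and 74.3 CPM, had overlapping groups and did not pass (0.59 ± 0.29, adjusted p = 0.137, edgeR).

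Asl was at 58.4, 53.7 and 59.6 CPM without LPS and 42.0, 46.5 and 49.3 CPM with it. These groups did not overlap, yet the change missed the threshold (-0.32 ± 0.12, adjusted p = 0.0578, edgeR). The ratio of Ass1 to Asl was 0.991, 1.09 and 1.38 without LPS and 1.58, 1.82 and 3.02 with it (exact permutation p = 0.1, the smallest possible; adjusted p = 0.25). Odc1 (0.16, 95% interval -0.33 to 0.65), Srm (-0.11, -0.69 to 0.47) and Sat1 (-0.34, -0.67 to -0.007) did not pass after adjustment. Thus 5 of 9 tested members had groups that did not overlap (4 higher, 1 lower), beside 41.4% of all tested genes (19.9% higher, 21.5% lower). Arg1 had 4, 2 and 4 counts without LPS and 4, 2 and 11 with it, a ratio of 1.59 (counting interval 0.686 to 3.88).

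**Figure D2:**
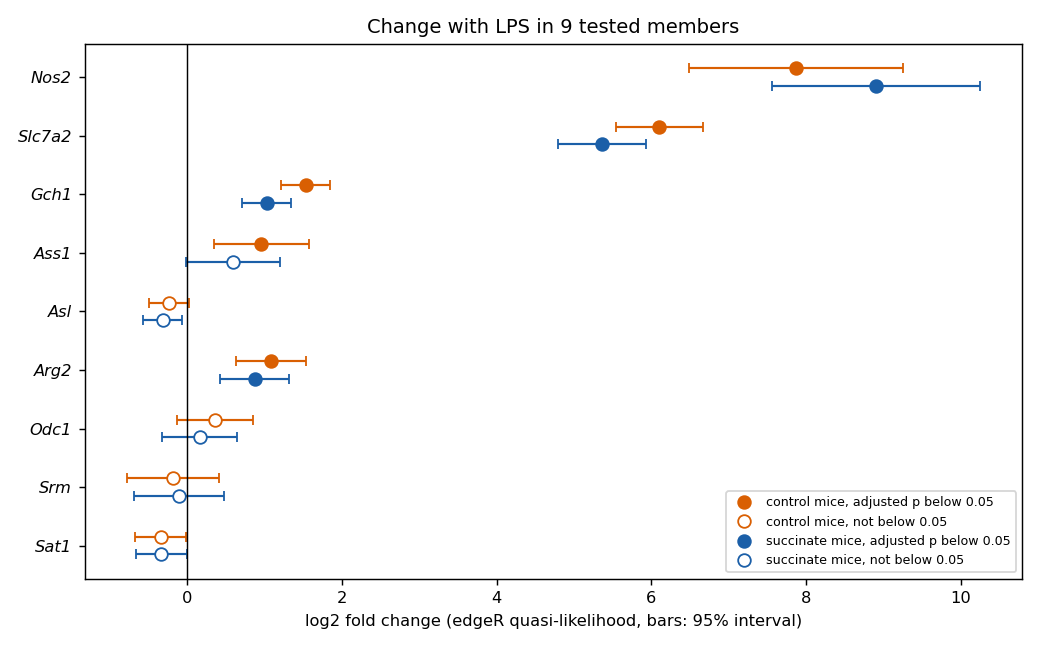
Log2 fold change with LPS (x axis, edgeR, bars are 95% intervals) for the 9 tested members in control mice (orange) and succinate mice (blue), filled where the adjusted p was below 0.05. Nos2 and Slc7a2 lie apart from the other members on the right, and the intervals of Odc1 and Srm cross 0 in both groups of mice.

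Succinate given to the mice was then compared with none in cells without LPS. None of the 9 tested members was called by edgeR, beside 0% of all tested genes. At an unadjusted p below 0.05 there were 535 genes of 14324 and 0 members, and DESeq2 and limma-voom called 0 members. No member had groups that did not overlap, beside 7.92% of all tested genes (3.65% higher, 4.27% lower). Odc1 had the largest difference of the 9, 59.1 ± 6.01 CPM in control and 78.3 ± 22.7 CPM in succinate mice (SD, n = 3), or 0.41 ± 0.23 (95% interval -0.09 to 0.90, adjusted p = 0.958, edgeR). Its libraries overlapped, since replicate 3 of the succinate mice was at 52.3 CPM and the other 2 at 94.3 and 88.1 CPM.

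Arg2 replicate 1 of the succinate mice was at 31.2 CPM, and the other 2 were at 18.0 and 16.3 CPM, within the control range (0.22, 95% interval -0.23 to 0.67). For Gch1 the interval was -0.11 to 0.53, for Ass1 -0.56 to 0.67, for Asl -0.44 to 0.07, for Sat1 -0.37 to 0.29 and for Srm -0.36 to 0.81. Nos2 had 3 counts in each group, which leaves a ratio anywhere from 0.129 to 7.21. Slc7a2, at 1.25 ± 0.536 and 1.03 ± 0.228 CPM, was also little above its floor (interval -1.02 to 0.46).

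The comparison of succinate and control mice in cells with LPS held the largest differences between these mice, in opposite directions for the synthase and its arginine transporter. Nos2 was at 15.8 ± 10.6 CPM in control and 31.2 ± 1.62 CPM in succinate mice, and Slc7a2 at 85.8 ± 4.38 and 42.4 ± 11.3 CPM (SD, n = 3). Neither passed after adjustment. edgeR called 0 of 9 tested members and 0.0628% of all tested genes. At an unadjusted p below 0.05 there were 3 members (Nos2, Slc7a2 and Asl) and 1680 of 14324 genes. DESeq2 and limma-voom each called 1 member, Slc7a2.

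Slc7a2 was at 85.9, 90.2 and 81.4 CPM in control and 30.9, 42.9 and 53.5 CPM in succinate mice. Every library of the succinate mice was below every control library. The difference was -1.02 ± 0.19 on the log2 scale (95% interval -1.42 to -0.61), 2.02-fold lower, with an adjusted p of 0.0547 in edgeR, just above the threshold. With DESeq2 the adjusted p was 0.000208 and with limma-voom 0.0202. It was below 0.05 in 8 of 23 settings, and the difference was negative in all 23 (-1.22 to -0.84).

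Nos2 was at 9.88, 9.41 and 28.0 CPM in control and 32.1, 29.3 and 32.1 CPM in succinate mice. The groups did not overlap, but replicate 3 of the control mice lay close to the succinate libraries. The difference was 0.98 ± 0.33 (95% interval 0.27 to 1.70, adjusted p = 0.248, edgeR), 1.98-fold. Replicate 3 is the 1 LPS library of the other library class. Without it the difference was 1.72 ± 0.23 (adjusted p = 0.00771), and with the class as a covariate it was 1.69 ± 0.20 (adjusted p = 0.00838). In the 7 libraries of the larger class it was 1.68 ± 0.14 (adjusted p = 0.0382). These 3 settings all take replicate 3 out of the comparison, or nearly so, because the other libraries of its class had at most 2 counts of Nos2. Without replicate 1 or without replicate 2 of the control mice the difference was 0.77 and 0.76. Over all settings it was positive in 23 of 23 and called in 4, with adjusted p from 9.08e-05 (no filter) to 0.716. What sets replicate 3 apart was not tested.

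The remaining members differed less. Asl was at 62.0, 53.4 and 50.7 CPM in control and 42.0, 46.5 and 49.3 CPM in succinate mice, without overlap (-0.27 ± 0.12, adjusted p = 0.395, edgeR). Gch1 was at 75.5 ± 8.58 and 61.9 ± 7.00 CPM (SD, n = 3), with overlap (-0.29 ± 0.15, adjusted p = 0.472, edgeR). Thus 3 of 9 tested members had groups that did not overlap, beside 17.1% of all tested genes (1 higher beside 6.95%, 2 lower beside 10.2%). The intervals were -0.92 to 0.29 for Ass1, -0.43 to 0.45 for Arg2, -0.28 to 0.70 for Odc1, -0.30 to 0.88 for Srm and -0.36 to 0.30 for Sat1. Arg1 had 17 counts in each group.

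**Figure D3:**
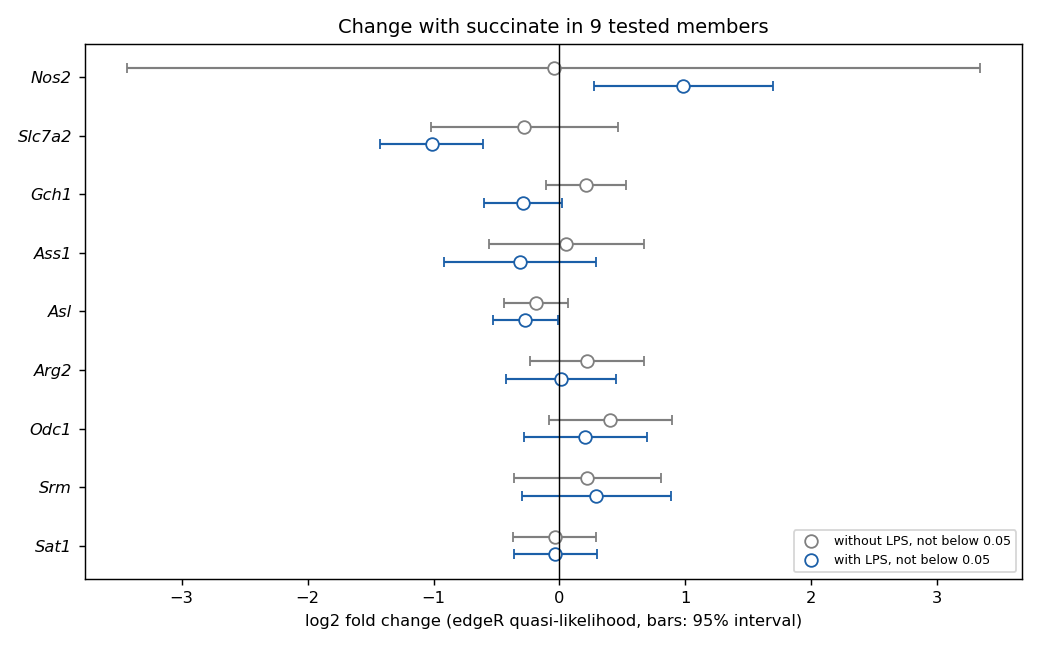
Log2 fold change of succinate against control mice (x axis, edgeR, bars are 95% intervals) for the 9 tested members without LPS (grey) and with LPS (blue); open points had an adjusted p of 0.05 or more. With LPS, the interval lies above 0 for Nos2 and below 0 for Slc7a2 and Asl, before adjustment over genes.

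The ratio of Nos2 to Slc7a2 per exon length within each LPS library, chosen after their values were seen, was 0.238, 0.216 and 0.712 in control and 2.15, 1.42 and 1.24 in succinate mice. Per exon length, the transporter was the higher of the pair in the control libraries and the synthase in the succinate libraries. This order depends on the exon unions taken as lengths (4412 bp for Nos2, 9135 bp for Slc7a2). By counts alone, the succinate LPS libraries held 614, 520 and 597 for Nos2 and 591, 760 and 995 for Slc7a2. The mean log2 ratio differed by 2.23 (-1.59 ± 0.956 against 0.64 ± 0.414, SD, n = 3). Its exact permutation p was 0.1, the smallest possible, with an adjusted p of 0.25. The groups of both genes were already apart in opposite directions. Their ratio therefore had to separate, and its p adds no support. The ratio of Nos2 to Arg2, whose enzymes both use arginine, was 0.0812, 0.0853 and 0.207 in control and 0.263, 0.208 and 0.300 in succinate mice. Here replicate 3 of the control mice was almost level with the lowest succinate library (difference 1.17, exact permutation p = 0.1; adjusted p = 0.25).

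**Figure D4:**
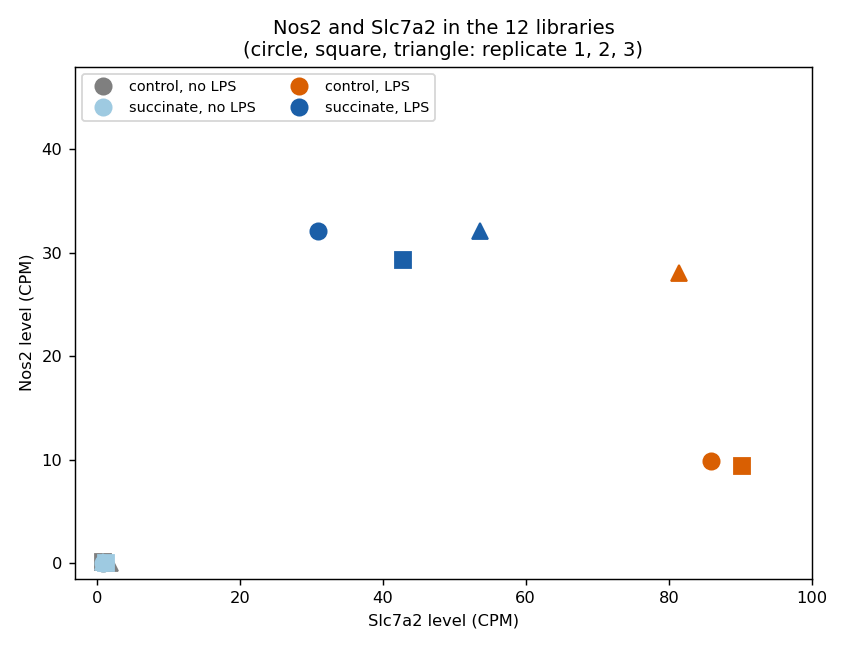
Level of Nos2 (y axis, CPM) against Slc7a2 (x axis, CPM) in the 12 libraries, coloured by group, with the replicate as symbol. The 6 unstimulated libraries lie at the origin; the LPS libraries of control mice lie at the right, at 9.41 to 28.0 CPM of Nos2, and those of succinate mice lie to their left at 29.3 to 32.1 CPM.

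Other measures were compared between the same LPS libraries. The mitochondrially encoded share of counts was 0.984 to 1.07% in control and 1.22 to 1.26% in succinate mice. Summed T and NK cell markers (7 genes) were at 19.0 to 31.4 and 32 to 43.1 CPM, of which Nkg7 made up most (means of 25.5 and 36.6 CPM). Trac had means of 0.992 and 1.06 CPM, and the other 5, the CD3 genes among them, lay below 0.5 CPM. Summed dendritic cell markers were at 26.8 to 33.0 and 23.7 to 24.4 CPM. Most of that difference was Xcr1 (means of 17.1 and 11.2 CPM), while Siglech (1.18 and 2.04 CPM) and Clec9a (0.213 and 0.411 CPM) went the other way. The ranges of the T and NK cell sum and of the dendritic cell sum did not overlap between the mice. Neutrophil markers, at 13710 to 18890 and 14900 to 16990 CPM, and the other 6 lists overlapped. The part of the mitochondrial share and of these lists in the differences of Nos2 and Slc7a2 was not tested.

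Whether the LPS effect itself differed between the mice was tested as an interaction. No member was called by edgeR, beside 0% of all tested genes. At an unadjusted p below 0.05 there were 560 genes and 1 member, Gch1, and DESeq2 and limma-voom called 0 members. The log2 fold change of Gch1 with LPS was 1.53 in control and 1.03 in succinate mice (interaction -0.50 ± 0.21, 95% interval -0.95 to -0.06, adjusted p = 1, edgeR). For Slc7a2 the interaction was -0.74 ± 0.40 (-1.59 to 0.12) and for Nos2 1.03 ± 1.81 (-2.85 to 4.91), whose width comes with the 3 counts in each unstimulated group. For the other tested members, Ass1 (-0.37), Arg2 (-0.21), Odc1 (-0.20), Asl (-0.08), Srm (0.07) and Sat1 (0.007), the intervals all crossed 0.

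The wider pathway was read through 66 further genes in 6 lists, of which 51 were tested. With LPS in control mice, 12 rose and 13 fell (edgeR, beside 15.3% and 14.8% of all tested genes), with a median log2 fold change of 0.09. In succinate mice 12 rose and 12 fell (median -0.10), beside 14.1% and 16.2% of all tested genes. In neither succinate comparison nor in the interaction was any of the 51 called by edgeR, and the smallest adjusted p was that of the spermine oxidase Smox with LPS (-0.48, adjusted p = 0.0659).

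Of 6 tested tetrahydrobiopterin genes beside Gch1, 1 rose and 3 fell with LPS in control mice (1 and 2 in succinate mice). The shares of all tested genes were 15.3% and 14.8% (14.1% and 16.2% in succinate mice). Pts, which follows Gch1 in the synthesis, rose from 23.8 ± 3.61 to 34.2 ± 6.57 CPM (SD, n = 3; adjusted p = 0.0183, edgeR). Spr, the last enzyme of the synthesis, fell from 13.2 ± 1.40 to 7.36 ± 0.192 CPM (adjusted p = 0.00132). The recycling enzyme Qdpr fell in control mice (-0.55 ± 0.19, adjusted p = 0.0363) and was at 0.18 in succinate mice (adjusted p = 0.502). Its interaction (0.73 ± 0.26) was not called.

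Of 6 tested arginine and ornithine transporters, 1 rose (Slc3a2) and 2 fell in control mice, beside 15.3% and 14.8% of all tested genes. As many did in succinate mice, beside 14.1% and 16.2%, where Slc7a3 was the 1 that rose (1.11 ± 0.36, adjusted p = 0.0312, edgeR). Slc3a2, the heavy chain that partners several amino acid transporters, rose from 620 ± 73.6 to 1099 ± 168 CPM in control mice (0.83 ± 0.17, adjusted p = 0.00167, edgeR). In succinate mice it was at 619 ± 158 and 723 ± 12.2 CPM (0.22, adjusted p = 0.352). The interaction for Slc3a2 (-0.60 ± 0.24) was not called. Slc7a1, the constitutive arginine transporter CAT1, did not pass (0.09, adjusted p = 0.719). The mitochondrial ornithine carrier Slc25a15 fell from 7.04 ± 1.58 to 3.17 ± 0.701 CPM (adjusted p = 0.00178), and Slc7a6 fell by 0.37 on the log2 scale (adjusted p = 0.0223, edgeR).

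Of 9 tested enzymes of ornithine, proline, the urea cycle and creatine, 2 rose and 2 fell in control mice, as many as in succinate mice. Among all tested genes, 15.3% rose and 14.8% fell in control mice, and 14.1% and 16.2% in succinate mice. Proline dehydrogenase Prodh rose from 6.66 ± 0.710 to 15.5 ± 2.53 CPM (1.22 ± 0.19, adjusted p = 0.00013, edgeR), while Aldh4a1, the next enzyme of proline breakdown, fell from 7.82 ± 0.632 to 3.48 ± 0.095 CPM (adjusted p = 0.000206). Ornithine aminotransferase Oat fell from 97.6 ± 2.66 to 69.8 ± 6.96 CPM (adjusted p = 0.0073), and Gatm, which uses arginine for creatine synthesis, rose from 19.3 ± 3.17 to 29.6 ± 4.61 CPM (adjusted p = 0.0166, edgeR). Cps1, Otc, Nags and Agmat had 0 to 7 counts over all libraries and were not tested.

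Of 15 tested genes of polyamine metabolism and transport beside the members, 1 rose and 5 fell in control mice (2 and 5 in succinate mice). Over all tested genes the shares were 15.3% and 14.8% (14.1% and 16.2% in succinate mice). Amd1, which supplies the aminopropyl donor for spermidine and spermine, fell from 148 ± 5.99 to 54.0 ± 4.43 CPM (-1.46 ± 0.10, adjusted p = 6.7e-08, edgeR). Mouse Amd2 is a near-identical copy, so the split of reads between them is uncertain; Amd2 was called lower too (-1.46 ± 0.51, adjusted p = 0.0445, edgeR). The 1 that rose was Eif5a, the protein modified with spermidine to hypusine (0.38 ± 0.11, adjusted p = 0.0147). The antizyme inhibitor Azin1, which protects Odc1 protein from antizyme, fell from 425 ± 8.47 to 206 ± 10.7 CPM (-1.04 ± 0.10, adjusted p = 1.6e-06, edgeR). The lysosomal polyamine exporter Atp13a2 fell from 58.4 ± 10.4 to 18.7 ± 3.28 CPM, and the polyamine oxidase Paox from 12.1 ± 0.046 to 5.68 ± 0.463 CPM. In succinate mice the changes were -1.60 for Amd1, -1.03 for Azin1 and -1.64 for Atp13a2, each called, and -0.53 for Paox, which did not pass (adjusted p = 0.0894).

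None of 5 tested genes of nitric oxide handling was called in control or in succinate mice by edgeR, beside 30.1% and 30.2% of all tested genes. The smallest p-values were those of Nosip (-0.27, adjusted p = 0.0822), which binds endothelial nitric oxide synthase, and Adh5 (-0.30, adjusted p = 0.136), which reduces S-nitrosoglutathione. The neuronal and endothelial synthases Nos1 and Nos3 had 5 and 65 counts over all libraries and were not tested, so Nos2 was the 1 tested nitric oxide synthase. The genes of soluble guanylate cyclase, Gucy1a1 and Gucy1b1, had 5 and 7 counts.

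Of 10 tested inducers and transcription factors of Nos2 and Odc1, 7 rose and 1 fell with LPS in control mice (6 and 1 in succinate mice). The 1 that fell was Irf8 in both (-1.26 and -1.61). Of all tested genes, 15.3% rose and 14.8% fell in control mice, and 14.1% and 16.2% in succinate mice. Irf1, an activator of Nos2 transcription, rose from 42.4 ± 1.35 to 169 ± 50.3 CPM in control and from 45.8 ± 3.35 to 107 ± 7.69 CPM in succinate mice. Its difference between the LPS groups was -0.66 ± 0.16 (adjusted p = 0.105, edgeR), on the opposite side of 0 from that of Nos2. The differences of Nfkb1 (-0.32), Stat2 (-0.31) and Tnf (-0.03) between the LPS groups did not pass either. Ifnb1 had 30 counts over all libraries and was not tested.

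**Figure D5:**
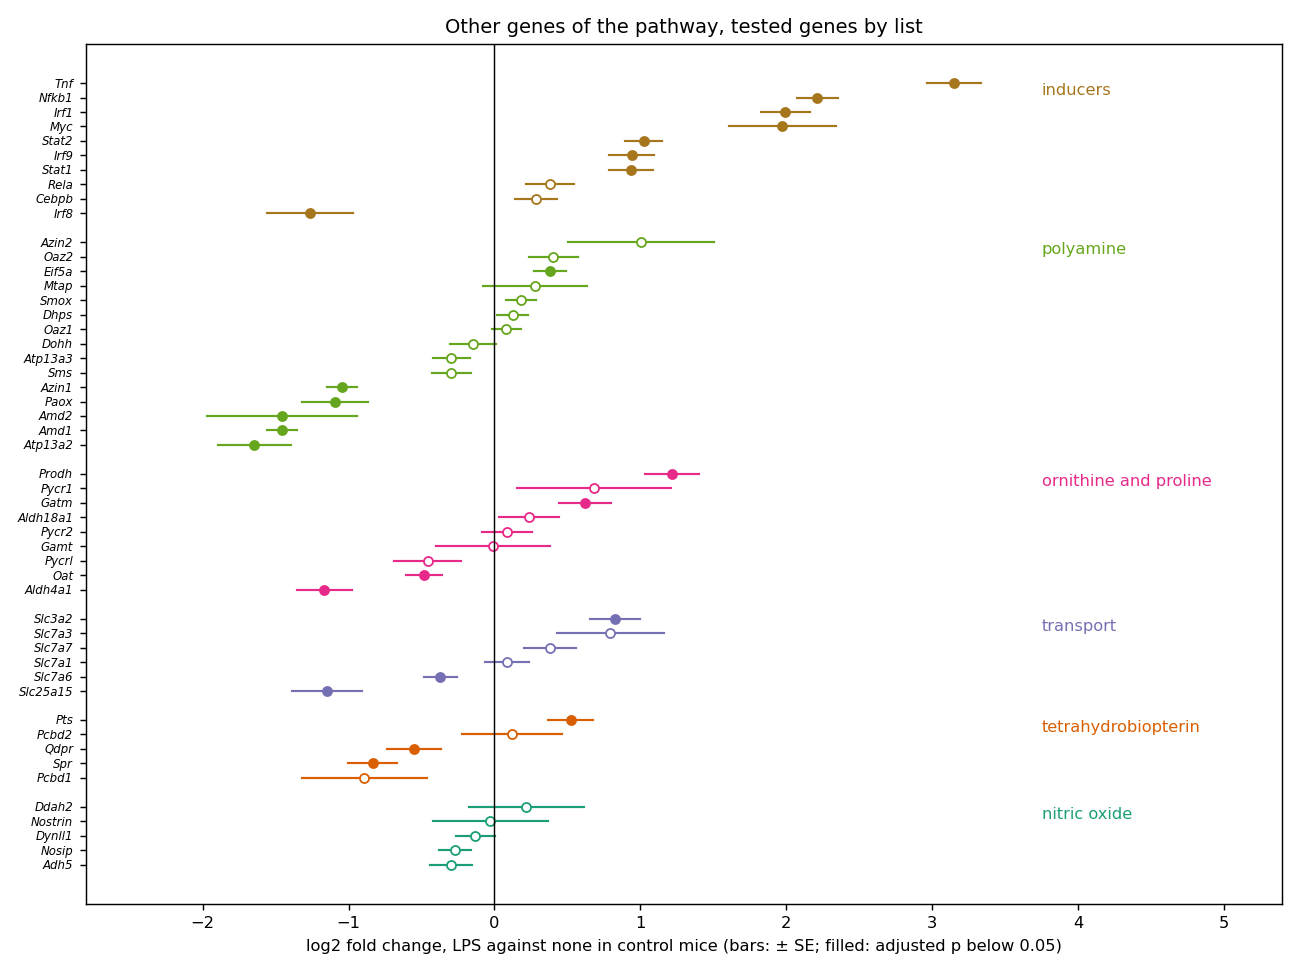
Log2 fold change with LPS in control mice (x axis, edgeR, bars are ± SE) for 50 of the 51 tested genes of the wider pathway, grouped by list and filled where the adjusted p was below 0.05. The inducers lie mostly to the right of 0, up to Tnf at 3.15, and the called polyamine genes mostly to the left, down to Atp13a2 at -1.65.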

How the data were processed

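Per the labels, total RNA was extracted with Trizol and libraries were made by a sequencing company. The deposited values are raw counts, whole numbers for each gene. Trim Galore and mm10 are the tool and build named, per the submitters' processing notes. For aligner, counter, annotation and strand: not given in the sources used here. Groups came from the sample titles. Genes were filtered with filterByExpr (14324 kept of 28563 with a count), TMM-scaled and tested with edgeR 4.0.16 (R 4.3.3) by a quasi-likelihood fit with 1 mean per group over all 12 libraries. Calls used a Benjamini-Hochberg adjusted p below 0.05 over all tested genes. CPM values are TMM-scaled, log2 CPM used a prior count of 2, and RPKM values used exon unions and coordinates of GENCODE M21 (GRCm38, the assembly behind mm10). DESeq2 1.42.0 and limma-voom (limma 3.58.1) were alternatives, with other filters and scalings, the replicate number or library class in the model, subsets of libraries, and each library left out in turn. The scripts were tested on simulated data. No 2 libraries of a group agreed within counting noise (chi-square per degree of freedom 6.43 to 38.7), so none was treated as deposited more than once; this does not show that they are independent samples.

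The members and lists were chosen with earlier results of these data known. The rule for names took all 10 members, and of each wider list up to 4 called genes with the smallest p for LPS in control mice (up to 2 where none was called) plus any called in a succinate comparison. Smox, Slc7a1, Slc7a3, Amd2, Eif5a, Irf8, genes too low to test and the ratios within libraries were named beyond it, after their values were seen. For Nos2, Ass1, Gch1 and Odc1 the 4 genes nearest in their centred group means of log2 CPM were also taken. The result of 1 wider-pathway gene that the rule takes is not reported here.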

Additional observations from a re-analysis of the deposited data

How the results depend on the processing

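Of the 9 member changes called with LPS, 194 of 198 values under other settings stayed on the same side of the threshold with the same direction, 4 lost the call (3 for Ass1 in control mice, 1 for Arg2 in succinate mice) and 0 reversed. Each comparison had up to 23 settings, the reported one included. The number of called members was 4 to 6 in control and 4 to 5 in succinate mice when 1 library was left out, and 7 in control mice with library size alone, where 1865 genes were called higher and 2651 lower, against 2190 and 2116. For succinate with LPS it was 0 to 1 on leaving out 1 library, 2 without a filter or with the library class as a covariate, 1 with a stricter filter, DESeq2, limma-voom, the replicate block or the larger library class, and 0 otherwise. Over all genes that comparison had 9 calls, 694 without a filter, 30 with a stricter one, 337 with DESeq2, 34 with limma-voom, 77 with the replicate block, 190 with the class as a covariate, 1 in the larger class, 0 with library size alone and 0 with only the 2 groups compared, and 0 to 201 on leaving out 1 library (201 without succinate replicate 3, 70 without control replicate 3). Without LPS, succinate had 0 calls, 72 without a filter and 1 with DESeq2. The interaction had 0, 71 without a filter and 3 with DESeq2. In the larger class, the LPS calls over all genes were 2107 in control and 2229 in succinate mice, against 4306 and 4331. The cause was not tested.

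Values that changed sign were all uncalled. With LPS in succinate mice, Odc1 was at -0.084 in the larger class and Srm at 0.11 with the class as a covariate. For succinate without LPS, the larger class gave 3.18 for Nos2, 0.018 for Slc7a2 and 0.14 for Sat1; it sets 1 library against 1 there (0 and 1 counts of Nos2), so these signs say nothing about stability. With LPS, Arg2 was at -0.034 with the class as a covariate and Sat1 at 0.09 with library size alone. In the interaction, the larger class gave -1.49 for Nos2, -0.24 for Sat1 and -0.11 for Srm, the class as a covariate -0.083 for Sat1, a stricter filter -0.004 for Sat1 and library size alone 0.006 for Asl. On leaving out 1 library, LPS values ranged from -0.562 to 0.026 for Srm in control mice, and from -0.034 to 0.315 for Odc1 and -0.31 to 0.016 for Srm in succinate mice. Succinate values without LPS ranged from -0.89 to 0.80 (Nos2), -0.13 to 0.39 (Arg2), -0.14 to 0.14 (Ass1), -0.47 to 0.12 (Slc7a2) and -0.24 to 0.13 (Sat1), and with LPS from -0.094 to 0.118 (Arg2), -0.719 to 0.027 (Ass1) and -0.067 to 0.062 (Sat1). Interactions ranged from -0.38 to 0.14 (Arg2), -0.185 to 0.045 (Asl), -0.42 to 0.12 (Odc1), -0.17 to 0.21 (Sat1) and -0.14 to 0.49 (Srm).

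With library size alone, the median log2 difference between the LPS groups over all genes was 0.107, against -0.014. Same-numbered libraries did not deviate together throughout: 7 of 18 pairs had a correlation of deviations over 0.1 (-0.13 to 0.38), and in 23 of 36 cases a library correlated best with its own number, a hint from the data, not the design. With the replicate block, Slc7a2 was called between the LPS groups (-1.05, adjusted p = 0.0333). Depth limits Nos2 without LPS and Arg1 everywhere.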

Other observations

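The genes whose pattern over the 4 group means lay nearest to that of a member, among 12951 candidates, are given as a description of 12 libraries. For Nos2 they were the cytokine genes Il1b (root mean square difference 0.309 log2 units), Il6 (0.372) and Il1a (0.52) and the chemokine gene Cxcl10 (0.402). Il1b was at 353, 352 and 1122 CPM in the control LPS libraries and 515, 797 and 1109 CPM in those of succinate mice. Il1a was at 63.4, 73.3 and 149 CPM and at 50.1, 82.4 and 139 CPM. In control mice, replicate 3 was thus the highest library for Il1b and Il1a, as it was for Nos2, while succinate replicates 1 and 2 were not raised for Il1a as they were for Nos2. Il6 was at 29.2, 23.8 and 31.6 CPM and at 27.1, 33.8 and 54.0 CPM, and Cxcl10 at 456, 377 and 479 CPM and at 516, 520 and 616 CPM.

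For Ass1 the nearest genes were Suco (0.024), Upb1 (0.032), Rps6ka4 (0.032) and Pmvk (0.034). For Gch1 they were Gm18342 (0.027), Lrrc75a (0.03), Gm2245 (0.035) and Fchsd2 (0.036), and for Odc1 they were Orc1 (0.013), Kmt2a (0.014), Col20a1 (0.017) and Ints10 (0.021). Upb1 (7 to 35 counts per library), Gm18342 (8 to 57) and Gm2245 (3 to 43) were low. Odc1 itself was called in no comparison. Among the control LPS libraries it was highest in replicate 3 (102 CPM), and none of its nearest genes was, so nearness of means did not extend to single libraries. The ratio of Odc1 to Sat1 per exon length, polyamine synthesis against breakdown, was 0.0535 to 0.0760 in unstimulated control cells and 0.0703 to 0.162 in control cells with LPS, with overlap (exact permutation p = 0.3; adjusted over 10 ratio tests, 0.5).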
